A study of Rattus norvegicus with 82 samples.

Results

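The 10 genes described here encode transcription factors that build and maintain the ventricles: the chamber factors Hand1, Hand2, Tbx5 and Tbx20, the GATA factors Gata4 and Gata6, and the MADS-box factors Mef2a, Mef2c, Mef2d and Srf. They were chosen by gene symbol, and 9 were matched to the 17337 genes of the deposited table. Mef2c was not analysed here, and Hand1 had too few reads to be tested, so that 8 of the 11954 genes tested across the series were transcription factors of this set.

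RNA was sequenced from cardiomyocytes of the right and left ventricle (RV and LV) of 41 rats, all of them F1 offspring of Wistar Kyoto mothers and Lewis fathers, giving 82 libraries in 12 groups. Pulmonary artery banding (PAB) loads the RV and aortic banding (AOB) loads the LV, both by a clip that does not constrict the vessel when it is placed, and sham-operated (Sham) rats were the controls of both. Hearts were taken in a compensated, hypertrophic stage (H; Sham-H with 7 animals, PAB-H and AOB-H with 6 each) or in decompensated failure (F; Sham-F with 9 animals, PAB-F with 6 and AOB-F with 7). Each animal gave 1 RV and 1 LV library, so the ventricle that was not banded also came from a banded animal. By the labels the animals were 11 weeks old and 7 weeks after surgery at stage H, 28 weeks old and 22 weeks after surgery in PAB-F, and 31 weeks old and 26 weeks after surgery in Sham-F and AOB-F, so PAB-F and its control also differed in age. The study's methods give other harvest ages. Males numbered 3 in Sham-H, 4 in PAB-H, 2 in AOB-H and 4 in each F group, and the rest were females. Cells were freed by collagenase perfusion and enriched by filtering and centrifugation, not sorted.

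GATA4 and GATA6 are zinc finger proteins that bind the promoters of contractile and natriuretic peptide genes, often together with the T-box protein TBX5. TBX20, also a T-box protein, is needed for the growth and upkeep of heart muscle. HAND1 and HAND2 are basic helix-loop-helix proteins that mark the embryonic left and right ventricle, respectively. MEF2 proteins and SRF bind DNA through a MADS domain, MEF2 at A/T-rich sites of metabolic and contractile genes and SRF at CArG boxes of actin and other cytoskeletal genes, and both answer to load through cofactors such as histone deacetylases and myocardin-related proteins.

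The promoters of Srf and Mef2a are shown because they carry, within the 250 bases before the start of the gene, the element that their own protein family binds. The sequences come from RefSeq on the GRCr8 assembly, run from 5′ to 3′ on the strand of the gene, and hold a CArG box (Srf) or a MEF2 site (Mef2a) in capitals.
Srf, chr9:21923826-21924075, + strand: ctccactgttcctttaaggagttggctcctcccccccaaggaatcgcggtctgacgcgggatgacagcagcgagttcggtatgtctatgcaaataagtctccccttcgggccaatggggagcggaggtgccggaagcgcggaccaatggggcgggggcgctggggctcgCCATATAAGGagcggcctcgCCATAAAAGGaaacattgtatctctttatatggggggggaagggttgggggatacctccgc
Mef2a, chr1:130392163-130392412, - strand: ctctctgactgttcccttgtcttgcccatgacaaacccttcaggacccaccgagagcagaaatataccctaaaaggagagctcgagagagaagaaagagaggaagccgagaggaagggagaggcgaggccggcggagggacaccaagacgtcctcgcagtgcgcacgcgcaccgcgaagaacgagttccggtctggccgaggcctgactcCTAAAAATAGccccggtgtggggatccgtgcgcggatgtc
The Srf promoter held 2 CArG boxes, whose first bases lie 81 and 61 bases before the start, and the Mef2a promoter held 1 MEF2 site beginning 40 bases before it. Of 33469 rat promoters of the same length, 1.5% held a CArG box and 2.96% a MEF2 site on either strand. A promoter was matched for 8 of the 10 factors, and the other 6 matched ones held neither element. Also searched on both strands were the E-box CANNTG, the T-box half-site AGGTGT, the TATA box TATAAA and the GC box GGGCGG, and GATA preceded by A or T and followed by A or G. The GATA site was matched in Hand2 and Tbx5 and is held by 27% of all promoters, the E-box was matched in the same 2 genes (65.5% of all promoters), the TATA box in Srf and Hand1 (12.9%), and the GC box in Srf, Hand1, Hand2, Tbx20, Gata6 and Mef2d (30.5%). AGGTGT, held by 11.6%, was matched in none of the 8. Neither CArG box overlapped another of these motifs. A match is a run of letters and not a measured binding site.

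On the FPKM scale, which the authors made by dividing reads by gene length and library size, Mef2d had the highest median level over the 82 libraries (90.7 FPKM) and was followed by Gata4 (72.3), Tbx20 (62.9), Hand2 (55.6), Mef2a (49.9), Gata6 (49.4), Srf (48.5) and Tbx5 (24.3). The ranges of neighbours in this order overlapped throughout. By these medians the 8 factors stood between percentiles 82.6 and 95.5 of all genes in the table. Hand1 lay far below them, with 0 to 0.662 FPKM. It had 0 to 8 reads in RV libraries (53 in all) and 0 to 10 in LV libraries (104 in all), and no read in 17 of 41 RV and 14 of 41 LV libraries, where a count of 0 allows up to 3 reads. No comparison of Hand1 was made at this depth.

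Totals ran from 6675287 to 19665439 counts per library. The libraries did not vary evenly: the first principal component of the genes tested held 47% of their variance, and along it the LV libraries of stage F stood apart from the 41 RV libraries (scores -54.2 to 6.9). LV scores were 47.3 to 82.5 in Sham-F, 25.1 to 90.2 in AOB-F and 2.7 to 81.7 in PAB-F. There replicate 5 at 2.7 was the single LV library of stage F within the RV range. Of the 19 LV libraries of stage H, 5 also scored above 0 (3 Sham-H, 1 PAB-H and 1 AOB-H), at 1.1 to 75.5, and the other 14 scored below 0. The lowest of the 5, LV Sham-H replicate 6 at 1.1, lay within the range of the RV libraries. At stage F the ventricle and this separation cannot be told apart. At stage H values without the 5 animals stand beside the results whose calls change. Markers of ventricular cardiomyocytes held 4.84 to 14.3% of the counts of a library, those of endothelial cells 0.0595 to 0.472%, of mural cells 0.0992 to 0.230%, of fibroblasts 0.0162 to 0.314%, of macrophages 0.00537 to 0.0348%, of epicardial cells 0.00114 to 0.0134% and of atrial cardiomyocytes 0.00190 to 0.859%. No marker was at 0 in every library. The mural list holds Abcc9, at 10300 normalized counts in the RV of Sham-F, against 1298 for Notch3, 845 for Myh11 and 796 for Pdgfrb. The mural share there rested largely on Abcc9 and need not follow mural cells. The atrial list holds Nppa, which was higher in the RV of PAB-F than of Sham-F, as given below.

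**Figure D1:**
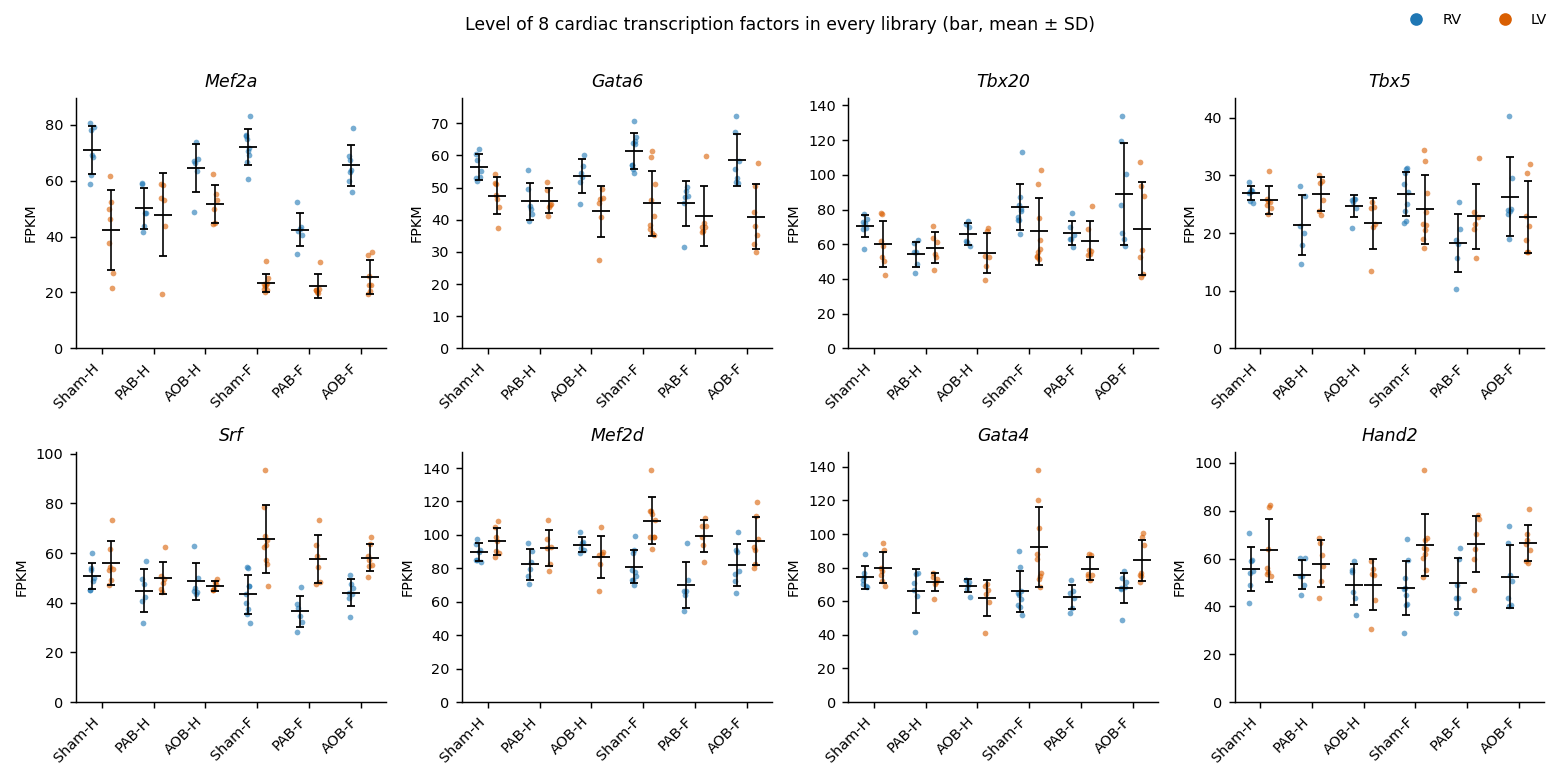
FPKM of the 8 factors in the RV (blue) and LV (orange) libraries of the 6 conditions, 1 panel per gene. Points are libraries (6 to 9 per group) and bars are mean ± SD. Mef2a of the 3 stage F conditions separates the ventricles without overlap, with LV libraries at 19.4 to 34.6 FPKM, and Srf does so in PAB-F, with RV libraries up to 46.5 and LV libraries from 47.5 FPKM. All other pairs of groups overlap, and the share of all genes tested that separate in this way is not given.

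The first question of the design was whether the factors differ between the ventricles of the same heart. Counted by animal in normalized counts, Mef2a was the factor with the widest difference, higher in the RV in 39 of 41, and Gata6 (36 of 41) and Tbx20 (35 of 41) leaned the same way. Srf was higher in the RV in 6 of 41 animals, Gata4 in 8, and Mef2d and Hand2 in 10 each, while Tbx5 was higher in 27. Called at an adjusted p under 0.05 of edgeR's quasi-likelihood test with the animal as a block, 3 of the 8 factors were higher and 4 lower in the RV of Sham-F, where 37.3% of all genes tested were higher and 40% lower. In AOB-F the counts were again 3 higher and 4 lower (all genes 34.6% and 36%), and in PAB-F 1 higher and 4 lower (all genes 34.1% and 32.2%). At stage H, 2 factors were higher and 0 lower in the RV of Sham-H (all genes 17.7% and 14.8%), 1 higher and 0 lower in AOB-H (4.46% and 9.29%), and 0 in either direction in PAB-H (0.979% and 0.535%), with 1 factor at an unadjusted p under 0.05. Without the 5 animals set apart at stage H the 3887 genes called in Sham-H became 411 (3.44%, of which 24.3% were higher in the RV) and the factors called 0. In AOB-H 1643 genes became 1183 (9.9%) and 1 factor was again called, but Mef2a in place of Gata6. In PAB-H 181 became 92 (0.77%) with 0 factors. The counts at stage F stand beside a background in which most genes were called. The median absolute log2 fold change of all genes tested was 0.72 in Sham-F, 0.57 in PAB-F and 0.61 in AOB-F, and Mef2a exceeded it in all 3, Srf in PAB-F, and the other 6 factors in none.

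**Figure D2:**
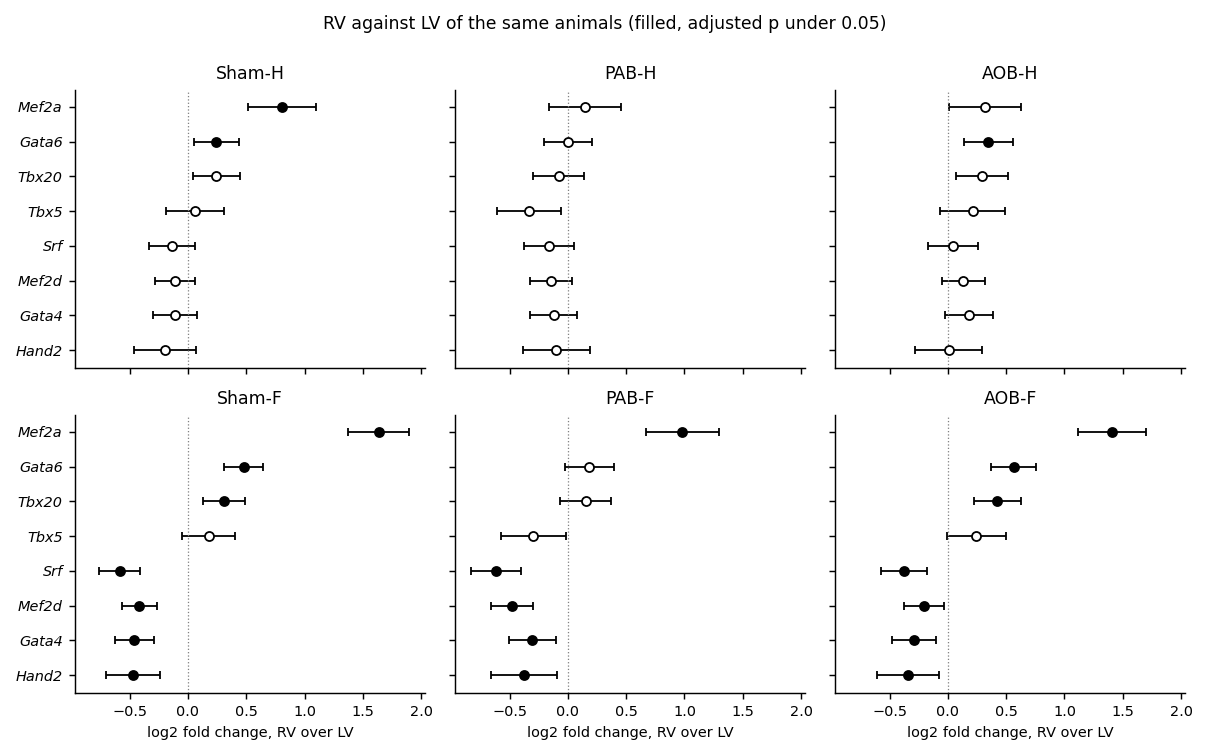
Log2 fold change of RV over LV (x axis) for the 8 factors (y axis) in each condition, with 95% intervals. Filled points passed an adjusted p under 0.05. Mef2a reaches 1.64 in Sham-F, while Srf, Mef2d, Gata4 and Hand2 lie below 0 in the 3 conditions of stage F.

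Mef2a, the MADS-box factor that in the adult heart serves mitochondrial and sarcomeric genes, separated the ventricles most. RV libraries stood at 58.9, 69.1 and 80.7 FPKM (lowest, median and highest) in Sham-H, at 41.7, 48.4 and 59.2 in PAB-H, at 48.7, 66.6 and 73.9 in AOB-H, at 60.7, 71.7 and 82.9 in Sham-F, at 33.8, 42.3 and 52.5 in PAB-F and at 56.1, 63.8 and 78.9 in AOB-F. LV libraries stood at 21.7, 46.1 and 61.8 FPKM (lowest, median and highest) in Sham-H, at 19.5, 53.3 and 58.6 in PAB-H, at 44.4, 51.5 and 62.5 in AOB-H, at 20.1, 22.6 and 31.3 in Sham-F, at 19.9, 20.9 and 30.9 in PAB-F and at 19.4, 22.9 and 34.6 in AOB-F. At stage F every RV library lay above every LV library of its condition, whereas at stage H the groups overlapped. For this and the separations named below, the share of all genes tested that also do not overlap is not given. The log2 fold change of RV over LV was 1.64 (SE 0.13, adjusted p = 1.76e-14) in Sham-F, 0.98 (SE 0.15, adjusted p = 1.15e-06) in PAB-F and 1.40 (SE 0.14, adjusted p = 6.72e-11) in AOB-F, that is 3.11-, 1.97- and 2.65-fold, with all 22 animals of stage F higher in the RV. In Sham-F it stood at percentile 95.2 of the log2 fold changes of all genes tested. As in any bulk sample, fewer cells of a type and less RNA per cell cannot be told apart here.

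At stage H the RV was higher for Mef2a in Sham-H, with a log2 fold change of 0.81 (SE 0.14, adjusted p = 6.10e-05) and all 7 animals in that direction. It was 0.32 (SE 0.15, adjusted p = 0.174) in AOB-H and 0.15 (SE 0.15, adjusted p = 0.591) in PAB-H, which missed the threshold. The Sham-H value rested on 3 animals whose LV libraries scored above 0 on the first component: these held 21.7 to 37.5 FPKM, and the other 4 LV libraries of Sham-H held 46.2 to 61.8. Without the 5 such animals of stage H, the Sham-H log2 fold change was 0.34 (adjusted p = 0.142) and not called, and that of AOB-H was 0.35 (adjusted p = 0.0314) and called. The single PAB-H library of this kind held 19.5 FPKM in the LV, against 43.9 to 58.6 in the other 5.

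Gata6, a GATA factor of the myocardium and smooth muscle, was also higher in the RV. RV libraries stood at 52.1, 55.1 and 61.9 FPKM (lowest, median and highest) in Sham-H, at 39.8, 43.9 and 55.5 in PAB-H, at 44.8, 53.95 and 60.2 in AOB-H, at 54.5, 63.5 and 70.7 in Sham-F, at 31.4, 47.3 and 50.1 in PAB-F and at 51.4, 55.8 and 72.1 in AOB-F. LV libraries stood at 37.5, 47.8 and 54.4 FPKM (lowest, median and highest) in Sham-H, at 41.3, 44.7 and 51.9 in PAB-H, at 27.4, 45.8 and 49.4 in AOB-H, at 35.2, 41.01 and 61.2 in Sham-F, at 36.2, 37.7 and 59.8 in PAB-F and at 30.02, 38.2 and 57.8 in AOB-F. The groups overlapped in all 6 conditions. The log2 fold change of RV over LV was 0.48 (SE 0.08, adjusted p = 2.21e-06) in Sham-F, 0.18 (SE 0.10, adjusted p = 0.1096) in PAB-F and 0.57 (SE 0.09, adjusted p = 1.67e-06) in AOB-F. In these, 8 of 9, 4 of 6 and 7 of 7 animals were higher in the RV. At stage H it was 0.25 (SE 0.09, adjusted p = 0.0419) in Sham-H, 0.0021 (SE 0.10, adjusted p = 0.992) in PAB-H and 0.35 (SE 0.10, adjusted p = 0.0157) in AOB-H. In Sham-H the call was lost without any of replicates 3, 4, 5 and 7 (adjusted p 0.0542 to 0.175), and in AOB-H without replicate 6, at 0.28 (adjusted p = 0.125), so that at stage H no Gata6 call held under every omission. Without the 5 stage H animals set apart, Gata6 was 0.21 (adjusted p = 0.4601) in Sham-H and 0.28 (adjusted p = 0.1102) in AOB-H. In PAB-F it was called without replicate 1, at 0.26 (adjusted p = 0.0346), and without replicate 5, at 0.28 (adjusted p = 0.0182), whose LV library scored 2.7 on the first component against 61.1 to 81.7 in the other 5.

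Tbx20, the T-box factor of adult heart muscle, stood at 65.9, 79.3 and 113 FPKM (lowest, median and highest) in Sham-F, at 58.5, 64.1 and 78.1 in PAB-F and at 58.7, 82.6 and 134 in AOB-F in RV libraries. LV libraries stood at 51.6, 57.4 and 103 FPKM (lowest, median and highest) in Sham-F, at 53.7, 56.5 and 82.2 in PAB-F and at 41.1, 56.6 and 107 in AOB-F. The groups overlapped in each condition. The log2 fold change of RV over LV was 0.31 (SE 0.09, adjusted p = 0.00164) in Sham-F, 0.15 (SE 0.11, adjusted p = 0.215) in PAB-F and 0.42 (SE 0.10, adjusted p = 2.60e-04) in AOB-F. By animal, 8 of 9, 5 of 6 and 7 of 7 were higher in the RV. At stage H the group medians of Tbx20 were 55.4 to 72.3 FPKM in the RV and 52.9 to 58.7 in the LV. The log2 fold changes of 0.24 (SE 0.10, adjusted p = 0.0569) in Sham-H, -0.08 (SE 0.11, adjusted p = 0.696) in PAB-H and 0.29 (SE 0.11, adjusted p = 0.0656) in AOB-H were not called. In Sham-H it was called with RLE size factors, DESeq2 and the length correction (adjusted p 0.0459, 0.0353 and 0.0353) and without replicate 1 or 7, and in AOB-H with DESeq2 (adjusted p = 0.0475) and without replicate 4. Without the 5 stage H animals the values were 0.06 (adjusted p = 0.864) in Sham-H and 0.18 (adjusted p = 0.313) in AOB-H. In Sham-F the call was lost in a fit without the animal block, at 0.28 (adjusted p = 0.08198).

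Srf, which drives actin and cytoskeletal genes, ran the other way at stage F. RV libraries stood at 31.9, 43.5 and 54.4 FPKM (lowest, median and highest) in Sham-F, at 28.1, 36.3 and 46.5 in PAB-F and at 34.1, 43.7 and 51.3 in AOB-F. LV libraries stood at 46.7, 63.04 and 93.4 FPKM (lowest, median and highest) in Sham-F, at 47.5, 56.7 and 73.2 in PAB-F and at 50.4, 57.1 and 66.5 in AOB-F. On this scale the ventricles overlapped in Sham-F and AOB-F and not in PAB-F, where they did overlap in normalized counts. All 22 animals of stage F had less Srf in the RV than in the LV. The log2 fold change was -0.58 (SE 0.09, adjusted p = 8.02e-08) in Sham-F, -0.62 (SE 0.11, adjusted p = 3.68e-06) in PAB-F and -0.38 (SE 0.10, adjusted p = 7.02e-04) in AOB-F. In PAB-F the 6 animals were close together, between -0.70 and -0.55 on the log2 scale. At stage H the medians were 44.98 to 50.1 FPKM in the RV and 46.5 to 53.7 in the LV. The log2 fold changes of -0.14 (SE 0.10, adjusted p = 0.271) in Sham-H, -0.16 (SE 0.10, adjusted p = 0.388) in PAB-H and 0.04 (SE 0.10, adjusted p = 0.844) in AOB-H were not called.

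Mef2d, the MEF2 protein known for carrying stress signals to fetal genes, resembled Srf in direction. RV libraries stood at 69.99, 77.9 and 99.4 FPKM (lowest, median and highest) in Sham-F, at 54.4, 66.5 and 94.9 in PAB-F and at 65.2, 78.7 and 102 in AOB-F. LV libraries stood at 91.3, 109 and 139 FPKM (lowest, median and highest) in Sham-F, at 83.9, 102 and 110 in PAB-F and at 80.5, 92.5 and 119.6 in AOB-F. The log2 fold change of RV over LV was -0.42 (SE 0.07, adjusted p = 2.46e-06) in Sham-F, -0.48 (SE 0.09, adjusted p = 1.55e-05) in PAB-F and -0.21 (SE 0.08, adjusted p = 0.0259) in AOB-F, with 8 of 9, 6 of 6 and 6 of 7 animals lower in the RV and overlapping groups throughout. The AOB-F call was lost when any of replicates 2, 3, 5 and 6 was left out (adjusted p 0.0545 to 0.0659). At stage H the medians were 81.6 to 93.9 FPKM in the RV and 88.5 to 96.6 in the LV. None of the 3 log2 fold changes (-0.11 in Sham-H, -0.14 in PAB-H and 0.13 in AOB-H) was called.

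Gata4, which with Tbx5 activates natriuretic peptide and contractile genes, stood at 51.8, 63.8 and 89.9 FPKM (lowest, median and highest) in Sham-F, at 53.1, 63.6 and 72.4 in PAB-F and at 48.8, 68.5 and 77.7 in AOB-F in RV libraries. LV libraries stood at 68.6, 85.1 and 138 FPKM (lowest, median and highest) in Sham-F, at 72.4, 76.1 and 88.1 in PAB-F and at 71.7, 76.6 and 100.4 in AOB-F. All 22 animals of stage F were lower in the RV, although the groups overlapped. The log2 fold change was -0.46 (SE 0.08, adjusted p = 2.98e-06) in Sham-F, -0.30 (SE 0.10, adjusted p = 0.00727) in PAB-F and -0.29 (SE 0.09, adjusted p = 0.00548) in AOB-F. On the GRCr8 annotation Gata4 overlaps the gene LOC102548615. The study counted on Rnor6.0 with multiple overlaps disabled, and whether counting used strand is not stated. How reads from the shared stretch were counted is therefore not known. At stage H the medians were 68.99 to 72.6 FPKM in the RV and 65.6 to 78.2 in the LV. The log2 fold changes of -0.11 (SE 0.09, adjusted p = 0.358) in Sham-H, -0.12 (SE 0.10, adjusted p = 0.49) in PAB-H and 0.18 (SE 0.10, adjusted p = 0.254) in AOB-H were not called.

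Hand2, known for the embryonic right ventricle, was lower in the adult RV than in the LV at stage F. RV libraries stood at 28.7, 47.1 and 68.1 FPKM (lowest, median and highest) in Sham-F, at 37.3, 46.1 and 64.5 in PAB-F and at 39.95, 50.5 and 73.7 in AOB-F. LV libraries stood at 52.1, 64.2 and 96.98 FPKM (lowest, median and highest) in Sham-F, at 46.8, 67.1 and 78.04 in PAB-F and at 58.3, 66.1 and 80.6 in AOB-F. The log2 fold change was -0.47 (SE 0.11, adjusted p = 2.83e-04) in Sham-F, -0.37 (SE 0.14, adjusted p = 0.0175) in PAB-F and -0.34 (SE 0.13, adjusted p = 0.018) in AOB-F, with 8 of 9, 6 of 6 and 5 of 7 animals lower in the RV and overlapping groups throughout. The call was lost in PAB-F without replicate 3, at -0.32 (adjusted p = 0.0652), and in AOB-F without replicate 2, at -0.27 (adjusted p = 0.0842), or without replicate 4, at -0.24 (adjusted p = 0.115). All 3 calls were lost under a correction for gene length, which left -0.17 (adjusted p = 0.172) in Sham-F, -0.03 (adjusted p = 0.851) in PAB-F and -0.20 (adjusted p = 0.147) in AOB-F. Hand2 stood at percentile 4.2 of gene length. At stage H the medians were 50.3 to 54.9 FPKM in the RV and 53.3 to 59.2 in the LV. The log2 fold changes (-0.20 in Sham-H, -0.10 in PAB-H and 0.01 in AOB-H) were not called.

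Tbx5, the T-box factor known for the embryonic left ventricle and atria, was the least abundant of the 8 and was not called between the ventricles in any condition of this fit. RV libraries stood at 25.3, 27.2 and 28.9 FPKM (lowest, median and highest) in Sham-H, at 14.7, 20.6 and 28.2 in PAB-H, at 20.9, 25.5 and 25.99 in AOB-H, at 21.7, 27.1 and 31.4 in Sham-F, at 10.3, 18.5 and 25.4 in PAB-F and at 19.01, 24.1 and 40.2 in AOB-F. LV libraries stood at 23.4, 25.3 and 30.8 FPKM (lowest, median and highest) in Sham-H, at 23.1, 27.3 and 30.04 in PAB-H, at 13.5, 22.9 and 25.4 in AOB-H, at 17.5, 21.5 and 34.5 in Sham-F, at 15.6, 22.2 and 33.03 in PAB-F and at 16.7, 21.2 and 31.97 in AOB-F. The RV and LV groups overlapped in all 6 conditions. The log2 fold change was 0.18 (95% interval -0.05 to 0.40, adjusted p = 0.139) in Sham-F, -0.30 (95% interval -0.57 to -0.02, adjusted p = 0.0532) in PAB-F and 0.24 (95% interval -0.01 to 0.50, adjusted p = 0.0767) in AOB-F. At stage H it was 0.06 (95% interval -0.19 to 0.31, adjusted p = 0.737) in Sham-H, -0.33 (95% interval -0.61 to -0.06, adjusted p = 0.199) in PAB-H and 0.21 (95% interval -0.06 to 0.49, adjusted p = 0.347) in AOB-H. These intervals do not exclude differences of a size called for other factors. In PAB-F the call for Tbx5 appeared without replicate 3, at -0.41 (adjusted p = 0.0127), replicate 4, at -0.40 (adjusted p = 0.0178), or replicate 6, at -0.34 (adjusted p = 0.0491), as well as with RLE size factors and DESeq2 (adjusted p 0.0288 and 0.0236). It appeared in Sham-F without replicate 2, at 0.26 (adjusted p = 0.0324), and in AOB-F without replicate 5, at 0.30 (adjusted p = 0.0434). The length correction gave 0.25 (adjusted p = 0.0335) in Sham-F and 0.29 (adjusted p = 0.0312) in AOB-F, both called. At stage H, without the 5 animals set apart, the log2 fold changes of RV over LV of Tbx5, Srf, Mef2d, Gata4 and Hand2 lay between -0.22 and 0.13, and none was called.

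Other measures moved with these differences at stage F. In Sham-F, 7 of 9 tested fibroblast markers, 4 of 7 endothelial, 4 of 7 mural, 5 of 8 macrophage and 2 of 2 epicardial markers were lower in the RV, with 0, 1, 2, 0 and 0 higher, where 40% of all genes tested were lower and 37.3% higher. The 2 mural markers higher in the RV were Abcc9 and Myh11, at log2 fold changes of 0.65 and 0.50. In turn, 5 of 9 ventricular cardiomyocyte markers were higher and 2 lower, and 1 of 4 atrial markers higher and 2 lower. In AOB-F (36% of all genes lower) 7 of 9 fibroblast, 6 of 7 endothelial, 4 of 7 mural, 7 of 8 macrophage and 1 of 2 epicardial markers were lower in the RV. In PAB-F (32.2% of all genes lower) these counts were 4, 4, 4, 3 and 1. Higher in the RV were 1 mural marker in AOB-F (34.6% of all genes higher) and 1 endothelial and 1 mural marker in PAB-F (34.1%). Of 9 ventricular cardiomyocyte markers, 6 were higher and 1 lower in AOB-F, and 4 higher and 2 lower in PAB-F. Of 4 atrial markers, 1 was higher and 1 lower in AOB-F, and 0 were called in PAB-F. In Sham-F the summed share of endothelial markers was 0.0595 to 0.102% of counts in the RV and 0.165 to 0.317% in the LV. That of fibroblast markers was 0.0162 to 0.05296% and 0.0441 to 0.134%, and that of macrophage markers 0.00537 to 0.009396% and 0.00854 to 0.0199%. Ventricular cardiomyocyte markers held 10.8 to 14.3% and 8.01 to 10.3% in Sham-F. The endothelial share was 0.0746 to 0.104% and 0.179 to 0.350% in AOB-F. In PAB-F it was 0.0799 to 0.191% and 0.151 to 0.316%, where the ventricles overlapped. With the genes in 5 equal classes by length, the class of the shortest had a median log2 fold change of -0.25 in Sham-F and that of the longest 0.17. These medians were -0.19 and 0.25 in PAB-F and -0.11 and 0.125 in AOB-F. By percentile of length, Hand2 stood at 4.2, Tbx5 at 30, Tbx20 at 34.1, Mef2d at 49, Gata6 at 70.5, Mef2a at 73.6, Gata4 at 75.1 and Srf at 84.7. A correction for length left 27 of the 30 calls made for the factors over all comparisons, the exceptions being the 3 of Hand2. The part of cell composition in these results was not tested.

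Ratios of paralogues within a library do not depend on library size. Among the MEF2 genes, Mef2a stood to Mef2d (FPKM over FPKM) at 0.696 to 1.101 (median 0.912) in the RV and 0.145 to 0.343 (median 0.211) in the LV of Sham-F. In PAB-F the ratio was 0.457 to 0.787 (median 0.633) and 0.193 to 0.294 (median 0.213), and in AOB-F 0.549 to 1.03 (median 0.825) and 0.185 to 0.416 (median 0.251). The ventricles did not overlap in any of the 3, and the RV was higher in all 22 animals. In Sham-H the ratio was 0.694 to 0.945 (median 0.768) in the RV and 0.201 to 0.626 (median 0.5101) in the LV, again without overlap and in all 7 animals. In PAB-H it was higher in the RV of 3 of 6 animals and in AOB-H of 4 of 6. Gata6 stood to Gata4 at 0.712 to 1.27 (median 0.964) in the RV and 0.383 to 0.664 (median 0.4898) in the LV of Sham-F. It stood at 0.682 to 1.06 (median 0.831) and 0.305 to 0.671 (median 0.498) in AOB-F, without overlap in both. In PAB-F this ratio overlapped, and 4 of 6 animals were higher in the RV. The ratio of Tbx20 to Tbx5 overlapped between the ventricles in all 6 conditions. The share of other gene pairs whose ratios separate the ventricles is not given.

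**Figure D3:**
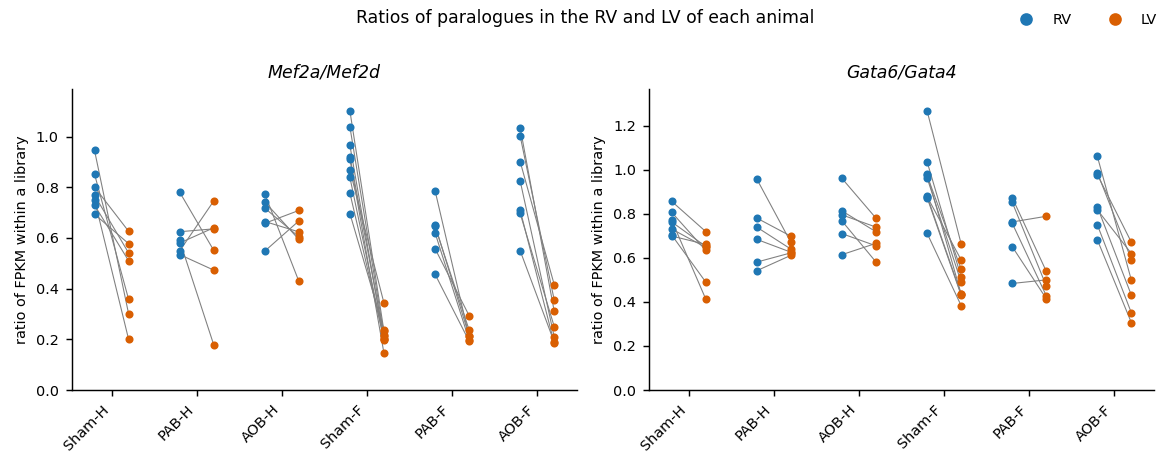
Ratio of Mef2a to Mef2d (left) and of Gata6 to Gata4 (right) in FPKM, in the RV (blue) and LV (orange) of each animal, joined by a line, for the 6 conditions. In Sham-F the Mef2a to Mef2d ratio is 0.696 to 1.10 in the RV and 0.145 to 0.343 in the LV, and the RV lies above the LV in all 9 animals.

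Whether the difference between ventricles changed from stage H to stage F in sham animals was tested as a contrast of the same fit. It was called for 4 of the 8 factors, where 49.8% of all genes tested were called. For Mef2a the log2 fold change of RV over LV went from 0.81 in Sham-H to 1.64 in Sham-F, a difference of 0.83 (SE 0.19, adjusted p = 8.36e-04). For Srf it went from -0.14 to -0.58, a difference of -0.44 (SE 0.13, adjusted p = 0.00523). For Gata4 it went from -0.11 to -0.46 with a difference of -0.35 (SE 0.12, adjusted p = 0.0187), and for Mef2d from -0.11 to -0.42 with a difference of -0.31 (SE 0.11, adjusted p = 0.0201). Without Sham-F replicate 2 the calls of Gata4, at -0.27 (adjusted p = 0.0518), and Mef2d, at -0.25 (adjusted p = 0.0517), were lost. Without the 5 animals set apart at stage H the Mef2a difference was 1.30. Their omission takes out the 3 LV libraries of Sham-H lowest in Mef2a, so this value is no independent check. For Gata6, Hand2, Tbx5 and Tbx20 the differences of 0.23, -0.28, 0.12 and 0.07 were not called, although that of Gata6 was without Sham-F replicate 2, at 0.30 (adjusted p = 0.0423).

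Within a ventricle, the sham groups of the stages differ in age and in time after surgery together. In the LV, Mef2a was lower in Sham-F, at 20.1 to 31.3 FPKM (median 22.6), than in Sham-H, at 21.7 to 61.8 (median 46.1), with all 9 Sham-F libraries below the Sham-H median and a log2 fold change of -0.88 (SE 0.14, adjusted p = 1.25e-06). It was 1 of 8 factors called, against 57.4% of all genes tested. Without the 5 animals set apart at stage H the log2 fold change of Mef2a was -1.19. Their omission takes out the 3 LV libraries of Sham-H lowest in Mef2a, so this value is no independent check. Between these LV groups 5 of 9 fibroblast, 4 of 7 mural, 4 of 8 macrophage, 2 of 7 endothelial and 2 of 4 atrial markers were higher in Sham-F, and 5 of 9 ventricular cardiomyocyte markers were lower and 2 higher. The summed share of fibroblast markers was 0.0441 to 0.134% in Sham-F and 0.0257 to 0.0895% in Sham-H, and that of ventricular cardiomyocyte markers 8.01 to 10.3% and 9.58 to 13.5%. Their part in the Mef2a difference was not tested. Srf, at 0.20 (SE 0.11, adjusted p = 0.105), was not called with all animals but was called without Sham-H replicate 4, at 0.28 (adjusted p = 0.02802), without Sham-F replicate 5, at 0.25 (adjusted p = 0.0369), and without the 5 animals, at 0.28 (adjusted p = 0.0488). In the RV none of the 8 factors was called between the sham groups, against 0.0502% of all genes tested. Srf alone had an unadjusted p under 0.05 there, and Mef2a had a log2 fold change of 0.01 (95% interval -0.27 to 0.30, adjusted p = 0.999).

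The next question was what banding did in the ventricle it loads. In the RV at stage F, Mef2a, Gata6 and Tbx5 were lower after PAB and none of the 8 was higher, where 11.1% of all genes tested were called. Mef2a held 33.8 to 52.5 FPKM (median 42.3) in the 6 PAB-F libraries and 60.7 to 82.9 (median 71.7) in the 9 Sham-F libraries, with no overlap, a log2 fold change of -0.74 (SE 0.15, adjusted p = 5.38e-04) or 0.5997-fold. Gata6 held 31.4 to 50.1 FPKM (median 47.3) and 54.5 to 70.7 (median 63.5), again with no overlap, a log2 fold change of -0.42 (SE 0.12, adjusted p = 0.01598). How many of all genes tested also lacked overlap between these groups is not given. Tbx5 held 10.3 to 25.4 FPKM (median 18.5) and 21.7 to 31.4 (median 27.1), with 5 of 6 PAB-F libraries below every Sham-F library, a log2 fold change of -0.53 (SE 0.15, adjusted p = 0.0149). Without PAB-F replicate 1 the calls of Gata6, at -0.34 (adjusted p = 0.1395), and Tbx5, at -0.41 (adjusted p = 0.141), were lost, and that of Tbx5 also without replicate 2, at -0.49 (adjusted p = 0.0503). The Mef2a call held in all 15 omissions.

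**Figure D4:**
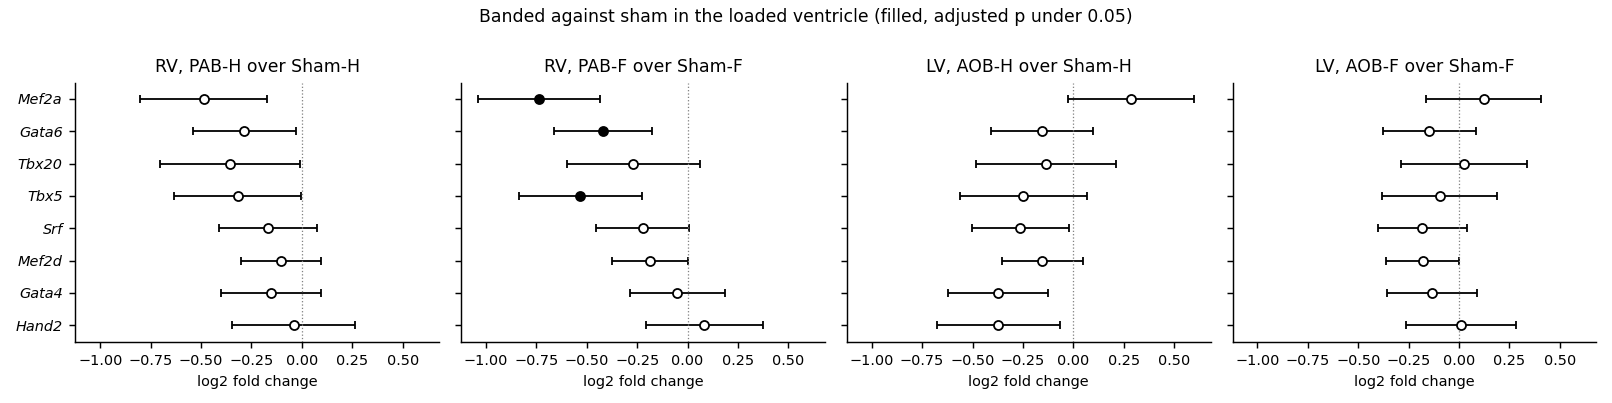
Log2 fold change of banded over sham (x axis) in the loaded ventricle for the 8 factors (y axis), with 95% intervals, in the RV after PAB and the LV after AOB at stages H and F. Filled points passed an adjusted p under 0.05. In the RV of PAB-F, Mef2a (-0.74), Tbx5 (-0.53) and Gata6 (-0.42) are filled, and no other point is.

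The remaining 5 factors in the RV of PAB-F were not called. Their log2 fold changes were -0.27 (95% interval -0.60 to 0.06, adjusted p = 0.284) for Tbx20, -0.22 (95% interval -0.45 to 0.01, adjusted p = 0.197) for Srf, -0.19 (95% interval -0.38 to 0.004, adjusted p = 0.189) for Mef2d, -0.05 (95% interval -0.28 to 0.18, adjusted p = 0.8105) for Gata4 and 0.08 (95% interval -0.21 to 0.37, adjusted p = 0.741) for Hand2. Mef2d was called without PAB-F replicate 4, at -0.29 (adjusted p = 0.0333). Some markers of other cells stood higher in these RV libraries than in those of Sham-F. Called higher were 4 of 9 fibroblast, 3 of 8 macrophage, 2 of 7 endothelial, 2 of 7 mural and 1 of 2 epicardial markers. None of them was called lower. Of the 11954 genes tested, 916 were called higher and 409 lower. Of 4 atrial markers, 2 were called higher and none lower. Nppa, on that list and among the GATA4 and TBX5 targets, had a log2 fold change of 6.17. The atrial counts therefore need not mark atrial cells. The summed share of fibroblast markers was 0.0294 to 0.198% of counts in PAB-F and 0.0162 to 0.05296% in Sham-F, that of macrophage markers 0.00577 to 0.0211% and 0.00537 to 0.009396%, and that of endothelial markers 0.0799 to 0.191% and 0.0595 to 0.102%. That of ventricular cardiomyocyte markers was 7.36 to 11.98% and 10.8 to 14.3%, with 0 of 9 called. Their part in the lower levels of Mef2a, Gata6 and Tbx5 was not tested.

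At stage H none of the 8 factors was called in the RV after PAB, where 4.5% of all genes tested were called. Mef2a held 41.7 to 59.2 FPKM (median 48.4) in PAB-H and 58.9 to 80.7 (median 69.1) in Sham-H, with 5 of 6 PAB-H libraries below every Sham-H library and a log2 fold change of -0.49 (SE 0.16, adjusted p = 0.0564). Fitted on the RV libraries alone it was -0.50 (adjusted p = 0.00306), and Gata6 was -0.30 (adjusted p = 0.0286), both called. In that fit 13.2% of all genes tested were called. Without Sham-H replicate 4 or PAB-H replicate 6 Mef2a was called as well, at -0.50 (adjusted p = 0.0433) and -0.54 (adjusted p = 0.0319). Tbx5, Tbx20 and Gata6 had log2 fold changes of -0.32 (95% interval -0.63 to -0.0019, adjusted p = 0.238), -0.36 (95% interval -0.70 to -0.01, adjusted p = 0.225) and -0.28 (95% interval -0.54 to -0.03, adjusted p = 0.178), each with an unadjusted p under 0.05. Srf, Gata4, Mef2d and Hand2 lay between -0.17 and -0.04. The 2 libraries of PAB-H replicate 2 scored 6.9 (RV) and 66.3 (LV) on the first component. Without the 5 stage H animals set apart, Mef2a was -0.36 (adjusted p = 0.305), and the 538 genes called became 2 (0.0167%). Markers moved here as well: 9 of 9 fibroblast markers were higher in PAB-H (median log2 fold change 1.37), with 2 of 4 atrial, 1 of 7 endothelial, 1 of 7 mural, 1 of 2 epicardial and 0 of 8 macrophage markers. The summed share of fibroblast markers was 0.0376 to 0.314% in PAB-H and 0.0248 to 0.0488% in Sham-H. Their part in the Mef2a and Gata6 values was not tested.

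In the LV after AOB no factor was called at either stage. At stage F, 12.9% of all genes tested were called and the log2 fold changes of the 8 factors lay between -0.18 and 0.12. Mef2a held 19.4 to 34.6 FPKM (median 22.9) in AOB-F and 20.1 to 31.3 (median 22.6) in Sham-F, at 0.12 (95% interval -0.16 to 0.41, adjusted p = 0.598). At stage H, 0.0167% of all genes tested were called. Gata4 held 41.1 to 70.4 FPKM (median 65.6) in AOB-H and 69.3 to 94.9 (median 78.2) in Sham-H, at -0.37 (95% interval -0.62 to -0.12, adjusted p = 0.115). Hand2, at -0.37 (95% interval -0.68 to -0.07, adjusted p = 0.1702), and Srf, at -0.26 (95% interval -0.50 to -0.02, adjusted p = 0.218), also had an unadjusted p under 0.05, and Mef2a was 0.29 (95% interval -0.03 to 0.60, adjusted p = 0.294). Without the 5 animals Gata4 was -0.29 (adjusted p = 0.9995), Hand2 -0.27 (adjusted p = 0.9995) and Mef2a 0.01 (adjusted p = 0.9995).

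The ventricles that were not loaded also gave no call among the factors: 0 of 8 in the RV after AOB at stage H (all genes 0%) and stage F (0.0669%), and 0 of 8 in the LV after PAB at stage H (0%) and stage F (0%). No factor had an unadjusted p under 0.05 in any of these 4 comparisons. PAB and AOB of a stage share their sham animals, so these values are not independent. Mef2a in the RV, for example, was -0.13 (95% interval -0.41 to 0.16, adjusted p = 0.9999) after AOB at stage F. The direct test of whether banding changed the difference between ventricles called no factor: 0 of 8 for PAB-H (all genes 0.0418%), AOB-H (0%), PAB-F (2.92%) and AOB-F (0.00837%). In PAB-F, Mef2a went from a log2 fold change of RV over LV of 1.64 in Sham-F to 0.98, a difference of -0.66 (SE 0.20, adjusted p = 0.0576), which passed with RLE size factors, no filter on low counts, DESeq2 and the length correction (adjusted p 0.0214 to 0.0456) but not without the animal block (adjusted p = 0.174). It also passed in 4 of 15 omissions of 1 animal, and Tbx5, at -0.47 (SE 0.18, adjusted p = 0.122), in 2 of them. Unadjusted p under 0.05 were reached by 3 factors for PAB-H, 2 for AOB-H, 3 for PAB-F and 0 for AOB-F.

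Related genes were taken from lists and read against the same fits, in which 37.3% of all genes tested were higher and 40% lower in the RV of Sham-F, 11.1% were called in the RV of PAB-F and 12.9% in the LV of AOB-F. Of 18 other cardiac transcription factors, those of Sham-F were 5 higher and 10 lower of 17 tested (median log2 fold change -0.71, against -0.05 over all genes tested) in the RV against the LV. Hey2, a repressor of atrial genes in the ventricle, had 382 ± 56.4 normalized counts in the RV (SD, n = 9) and 139 ± 30.6 in the LV (SD, n = 9), a log2 fold change of 1.47 (SE 0.16, adjusted p = 4.15e-11). Esrrg, a nuclear receptor of mitochondrial genes, was also higher, at 1.06 (SE 0.09, adjusted p = 4.60e-13), while Tbx2, a repressor of chamber genes, and Tbx1 were lower, at -2.21 (SE 0.18, adjusted p = 7.40e-14) and -2.66 (SE 0.60, adjusted p = 1.20e-04). Tbx1 rested on 1.26 and 9.02 normalized counts. In the RV of PAB-F the list gave 1 higher and 3 lower of 17, and Hopx, a cofactor that restrains SRF, had 900.5 ± 418 normalized counts in PAB-F (SD, n = 6) and 385 ± 72.2 in Sham-F (SD, n = 9), a log2 fold change of 1.22 (SE 0.24, adjusted p = 2.71e-04). In the LV of AOB-F it gave 0 higher and 2 lower, with Gata5 at -0.43 (SE 0.14, adjusted p = 0.0297). The 9 heart field genes gave 3 that could be tested, of which 0 were called in Sham-F and in the LV of AOB-F, and 1 was lower in the RV of PAB-F.

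Cofactors of the factors were 7 higher and 5 lower of 13 tested (median log2 fold change 0.15, against -0.05 over all genes tested) in the RV of Sham-F, beside 37.3% and 40% of all genes. Zfpm2, the GATA cofactor FOG-2, had 931 ± 116 normalized counts in the RV (SD, n = 9) and 409 ± 46.7 in the LV (SD, n = 9), a log2 fold change of 1.19 (SE 0.11, adjusted p = 2.25e-12), and Zfpm1, its paralogue, was lower in the RV, at -0.97 (SE 0.11, adjusted p = 3.52e-10). Hdac9, a histone deacetylase that represses MEF2, was higher, at 0.997 (SE 0.11, adjusted p = 4.47e-11), and Camta2 lower, at -0.76 (SE 0.07, adjusted p = 2.29e-12). In the RV of PAB-F 0 cofactors were higher and 3 lower of 13, with Zfpm2 at -0.61 (SE 0.14, adjusted p = 0.00236). In the LV of AOB-F 1 was higher and 3 lower, and Camta1 had 1725 ± 1083 normalized counts in AOB-F (SD, n = 7) and 957 ± 95.01 in Sham-F (SD, n = 9), a log2 fold change of 0.85 (SE 0.18, adjusted p = 9.81e-04).

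Genes known as targets of SRF were 3 higher and 7 lower of 12 tested (median log2 fold change -0.73, against -0.05 over all genes tested) in the RV of Sham-F. Those of MEF2 were 6 higher and 3 lower of 11 tested (median log2 fold change 0.35, against -0.05 over all genes tested). Those of GATA4 and TBX5 were 7 higher and 4 lower of 12 tested (median log2 fold change 0.89, against -0.05 over all genes tested). The shares of all genes called were again 37.3% higher and 40% lower. Among SRF targets, Actb, cytoskeletal actin, had 5956 ± 1460 normalized counts in the RV (SD, n = 9) and 23040 ± 6499 in the LV (SD, n = 9), a log2 fold change of -1.93 (SE 0.14, adjusted p = 8.41e-16). Acta1, skeletal actin, was lower as well, at -1.64 (SE 0.23, adjusted p = 4.07e-08), while Lmod2, which nucleates and lengthens thin filaments, and Vcl, vinculin, were higher, at 1.46 (SE 0.20, adjusted p = 1.23e-08) and 0.82 (SE 0.09, adjusted p = 2.86e-11). Among MEF2 targets, Xirp2, a protein of the intercalated disc, was higher at 2.43 (SE 0.29, adjusted p = 9.81e-10), as was Ppargc1a, a coactivator of mitochondrial genes, at 1.59 (SE 0.15, adjusted p = 5.05e-12). Nr4a1 and Ckm, muscle creatine kinase, were lower at -0.88 (SE 0.14, adjusted p = 2.54e-07) and -0.77 (SE 0.12, adjusted p = 2.00e-07).

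Nppa, which encodes the atrial natriuretic peptide and stands both among the GATA4 and TBX5 targets and among the atrial markers, had 328 ± 175 normalized counts in the RV (SD, n = 9) and 5432 ± 3998 in the LV (SD, n = 9), a log2 fold change of -3.89 (SE 0.39, adjusted p = 1.32e-11) in Sham-F. Nppb, the B-type peptide, was lower too, at -2.32 (SE 0.19, adjusted p = 4.70e-14). Chrm2, the muscarinic receptor, and Slc8a1, the sodium-calcium exchanger, were higher, at 1.81 (SE 0.15, adjusted p = 6.03e-14) and 1.23 (SE 0.12, adjusted p = 7.25e-12). In the RV of PAB-F (11.1% of all genes called) the SRF list gave 1 higher and 0 lower of 12, with Acta1 at 2.52 (SE 0.36, adjusted p = 5.63e-07), the MEF2 list 0 higher and 2 lower of 11, with Pfkm, phosphofructokinase, at -0.43 (SE 0.13, adjusted p = 0.0249), and the GATA4 and TBX5 list 2 higher and 0 lower of 12. Nppa there had 23650 ± 38660 normalized counts in PAB-F (SD, n = 6) and 328 ± 175 in Sham-F (SD, n = 9), a log2 fold change of 6.17 (SE 0.60, adjusted p = 3.70e-12). In the LV of AOB-F (12.9% of all genes called) the SRF list gave 0 of 12, the MEF2 list 1 higher and 1 lower of 11, with Xirp2 at 1.16 (SE 0.33, adjusted p = 0.0123), and the GATA4 and TBX5 list 1 higher and 0 lower of 12, with Nppa at 1.95 (SE 0.51, adjusted p = 0.00661).

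The genes whose log2 CPM followed each factor most closely over the 82 libraries, by Pearson's r, were these. For Mef2a they were Oxr1 (r = 0.968) and Stk39 (r = 0.963), with r = 0.930 and 0.882 over the 41 RV and 0.960 and 0.937 over the 41 LV libraries. For Gata6 they were Rbm24 (r = 0.848) and Atp6ap1l (r = 0.846), and for Tbx20 Itgb8 (r = 0.813) and Pdlim3 (r = 0.807). For Tbx5 they were Fbxo21 (r = 0.782) and Tom1l2 (r = 0.756). For Mef2d they were Prrc2a (r = 0.887) and Dvl3 (r = 0.876), for Srf Fhl3 (r = 0.835) and Usp19 (r = 0.826), and for Gata4 Wdr6 (r = 0.859) and Urgcp (r = 0.84). For Hand2 they were RGD1307554 (r = 0.756) and Rnf10 (r = 0.742). All these libraries share the separation on the first component, with which Mef2a had r = -0.957 over all libraries, -0.835 over the RV and -0.940 over the LV libraries. Only 1.5% of the genes tested had a larger absolute r with it over all libraries, against 43.3% for Gata6 and 57.3 to 77.5% for the other 6. Over the RV libraries alone, r with it was -0.811 for Gata6, -0.752 for Tbx5 and -0.520 for Tbx20. For Hand2, Gata4, Mef2d and Srf it was -0.367 to 0.026 there.

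Among themselves, the factors varied together to different degrees. Over the 82 libraries r was 0.755 between Mef2d and Srf, 0.744 between Gata4 and Srf, 0.702 between Gata4 and Mef2d, 0.689 between Tbx5 and Gata6, 0.661 between Tbx20 and Gata6, 0.658 between Gata6 and Mef2a, and 0.620 between Hand2 and Gata4. Of the pairs with Mef2a, that with Srf went from 0.326 within the RV to -0.540 within the LV libraries, and that with Mef2d from 0.394 to -0.470, so the sign of these depended on the ventricle. Tbx5 and Gata6 had r = 0.802 in the RV and 0.794 in the LV. These values describe 41 animals that each gave 2 libraries and share their sources of spread, and no p is attached to them.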

How the data were processed

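Cardiomyocyte RNA of both ventricles of 41 rats was depleted of ribosomal RNA and sequenced, and per the labels and the study's methods reads were trimmed with Trim Galore, aligned with STAR to Rnor6.0 and counted per gene with featureCounts. The authors deposited raw counts per gene, normalized counts (a signal made with the size factors of DESeq2 1.28.1) and FPKM for each library. Whether counting used strand is not given in the sources used here. Raw counts (6675287 to 19665439 per library) were tested with edgeR 4.0.16 in R 4.3.3, by its quasi-likelihood test with TMM scaling, a filter on low counts that left 11954 of 17337 genes, and Benjamini-Hochberg adjustment over all of them. Adjusted p under 0.05 was called. FPKM and normalized counts were used for levels only.

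RV and LV were compared in a fit with the animal as a block, since the labels give both libraries of an animal the same number. Deviations from the group means correlated more between libraries of the same animal (median r 0.186 to 0.297) than of different animals (-0.069 to -0.014). Groups of different animals were compared in a fit of 12 group means. Replicates are separate animals. On simulated counts with 200 genes changed by 1 on the log2 scale, 163 (RV against LV, Sham-F) and 157 (RV PAB-F against Sham-F) were recovered, with 6 and 11 others called among 11954 genes. The data themselves gave 9233 and 1325 calls in these comparisons. The simulation therefore cannot show how the fits behave when most genes differ, or for changes below 1. All 10 transcription factors were named. Of each other list at most 4 genes were named, the 2 called genes with the largest log2 fold change in each direction in RV against LV of Sham-F, and of the cofactor, factor and target lists also the called gene with the largest change in the RV of PAB-F and the LV of AOB-F, with the 2 genes most correlated with each factor. The factors and lists were chosen with earlier results of these data known. Marker genes are described by counts and summed shares. Alternatives were RLE size factors, no filter, DESeq2 1.42.0, fits with or without a block, sex as a covariate, 1 ventricle alone, the study's criteria (log2 fold change over 1, p under 0.01, mean normalized count over 50) and omission of each animal. A gene length correction and the omission of 5 stage H animals were chosen after seeing the data. Mef2c was not analysed here. Promoter sequences are RefSeq's, on GRCr8.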

Additional observations from a re-analysis of the deposited data

Results flagged for a closer look

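In 16 of the 96 sets of FPKM values (8 factors in 12 groups) the highest or lowest library lay farther from its nearest neighbour, relative to the range of its group, than Dixon's 95% critical value, which chance does in about 1 of 20 sets. Hand2 stood out at 96.98 FPKM in LV Sham-F replicate 2 (nearest library 68.7). Tbx5 stood out at 20.9 FPKM in RV AOB-H replicate 6 (nearest library 24.4), 30.8 FPKM in LV Sham-H replicate 3 (nearest library 25.9) and 13.5 FPKM in LV AOB-H replicate 6 (nearest library 20.98). Tbx20 stood out at 57.4 FPKM in RV Sham-H replicate 2 (nearest library 69.01) and 113 FPKM in RV Sham-F replicate 5 (nearest library 87.5). Gata4 stood out at 87.97 FPKM in RV Sham-H replicate 3 (nearest library 76.7), 48.8 FPKM in RV AOB-F replicate 2 (nearest library 67.1) and 41.1 FPKM in LV AOB-H replicate 6 (nearest library 59.8). Gata6 stood out at 31.4 FPKM in RV PAB-F replicate 1 (nearest library 45.3) and 59.8 FPKM in LV PAB-F replicate 5 (nearest library 39.03). Mef2a stood out at 31.3 FPKM in LV Sham-F replicate 3 (nearest library 25.3) and 30.9 FPKM in LV PAB-F replicate 5 (nearest library 21.2). Mef2d stood out at 139 FPKM in LV Sham-F replicate 2 (nearest library 115). Srf stood out at 62.9 FPKM in RV AOB-H replicate 6 (nearest library 50.1) and 62.2 FPKM in LV PAB-H replicate 5 (nearest library 50.9). LV PAB-F replicate 5, far above its group in Gata6 and Mef2a, also had the lowest score on the first component among the LV libraries of stage F (2.7). Replicate 6 of AOB-H stood out in 4 sets, Tbx5 in both ventricles, Gata4 in the LV and Srf in the RV. For 4 factors the log2 fold change of RV over LV differed between Sham-F and Sham-H by a test of the difference itself, with changes of 0.83 for Mef2a, -0.44 for Srf, -0.35 for Gata4 and -0.31 for Mef2d. Stage, age and the position of the LV libraries on the first component cannot be told apart in these.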

How the results depend on the processing

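No direction of a call reversed. Of the 30 calls made for the factors, 30 held with RLE size factors and with DESeq2, 27 with the gene length correction and 24 with no filter on low counts. In RV against LV of AOB-F, the count of 7 became 5 with no filter and 6 with no animal block. That of Sham-F went from 7 to 6 with no animal block. The count of 5 in PAB-F became 6 with RLE size factors or DESeq2 and 4 with the length correction. In RV against LV of Sham-H, 2 factors were called in the reported fit, 1 with no filter, 1 with no animal block, 0 by the study's criteria, 0 without the 5 stage H animals and 1 to 3 when 1 animal was left out. For AOB-H the 1 call became 2 with DESeq2, 0 with no animal block, 0 by the study's criteria and 0 to 2 when 1 animal was left out. The study's criteria, which ask for a change of more than 1 on the log2 scale, left 1 of 7 calls in Sham-F, 0 of 5 in PAB-F, 1 of 7 in AOB-F, 0 of 4 for the difference of Sham-F and Sham-H, 0 of 3 in the RV of PAB-F and 0 of 1 between the LV of Sham-F and Sham-H. The difference of PAB-F and Sham-F had 0 calls and gained 1 with RLE size factors, no filter, DESeq2 and the length correction, and 0 to 2 when 1 animal was left out. That of Sham-F and Sham-H had 2 with no filter. In the RV of PAB-H, 0 calls became 1 with DESeq2, 2 with RV libraries alone, 1 with the length correction and 0 to 1 when 1 animal was left out. The RV of PAB-F ranged from 1 to 4, the lowest without PAB-F replicate 1. The LV of Sham-F against Sham-H had 1 call, 2 with the length correction, 2 without the 5 animals and 1 to 2 when 1 animal was left out. The cause was not tested. Of the 26 calls made with the animal as a block, 21 were left in a fit without the animal block. Replicate numbers of banded and sham animals mark no shared source (median r of same-numbered libraries -0.103 to 0.16), and a replicate block on them changed none of 4 calls, nor did sex as a covariate. Over all genes, the RV of PAB-F gave 1325 calls (916 higher and 409 lower), of which the share that was higher is 54.3% with no filter and 52.9% of 3376 calls with RV libraries alone. For the RV of PAB-H 538 calls (467 higher) became 1575 (66.6% higher) with RV libraries alone. Without the 5 stage H animals they became 2, and the 3887 calls of RV against LV in Sham-H (2114 higher) became 411 (24.3% higher). The LV of AOB-F went from 1541 (1021 higher) to 476 calls (77.9% higher) with LV libraries alone. Of the 349 calls for the difference of PAB-F and Sham-F 280 were higher, against 69.4% with RLE size factors, 66.7% with no filter and 64.1% with DESeq2. Depth limits Hand1, which could not be tested.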
